A study of Mus musculus with 24 samples.

Results

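The 4 libraries named Oligo, from bone marrow–derived macrophages (BMDM) that received IL-4, IL-13 and oligomycin, were compared with the 4 libraries of naive BMDM of the same mice. They are 8 of the 24 libraries of the series, which holds 6 conditions of mice 1, 2, 4 and 5. The groups were found by the ending of the column names, -Oligo and -M0, and the leading number gives the mouse. The mice were wild-type C57BL/6J females of 9 weeks, and BMDM were grown from their bone marrow with M-CSF. Naive cells were left unstimulated for 24 hours. The cells of the Oligo libraries had 1 hour of pretreatment with oligomycin at 1 µM and were then kept for 24 hours in IL-4 at 20 ng/ml, IL-13 at 20 ng/ml and the inhibitor. Cytokine-treated cells without inhibitor (the libraries named M2, 4 in number) served to tell the cytokine response from what came on top of it. The labels disagree on ISRIB, a compound that counteracts the integrated stress response (ISR). By the library names and replicate labels, the Oligo libraries had oligomycin without ISRIB, and a second group named Oli_ISR had both. By the titles and treatment fields, the Oligo libraries had oligomycin with ISRIB at 1 µM, and Oli_ISR had oligomycin alone. No measured value was used to choose between these readings, and key genes are also given for the 4 Oli_ISR libraries.

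IL-4 and IL-13 act through receptors that share a chain and activate the transcription factor STAT6, which turns on genes of the type 2 (alternative) macrophage state such as *Arg1*, *Retnla* and *Chil3*. Oligomycin blocks the mitochondrial ATP synthase. The ISR starts with kinases that phosphorylate eIF2α, a factor that brings the initiator tRNA to ribosomes, and ATF4 is its main transcription factor. Targets of ATF4 make and import amino acids, charge tRNAs and, as with *Trib3* and *Ppp1r15a*, feed back on the response. Comparing the Oligo libraries with naive cells asks for the net state of these macrophages: how much of the cytokine response was still present, which genes lay below their naive level, and which appeared that neither naive nor cytokine-treated cells expressed at that level.

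Reads on genes numbered 17768551 to 19883716 per naive library and 18640294 to 20368244 per Oligo library. The 13679 of 56884 genes that passed a filter on low counts were tested. Levels are given as CPM, read counts scaled to a common normalized library size, for mice 1, 2, 4 and 5 in that order, and changes as log2 fold changes with their standard error (SE). Gene positions are on GRCm39. Of 16 genes of macrophage identity, every one but *Cx3cr1* had reads in each naive, IL-4/IL-13 and Oligo library, and *Csf1r*, the M-CSF receptor, was at 4210 to 5280 CPM in naive and 2090 to 2200 CPM in Oligo libraries. Markers of neutrophils, a cell type that bone marrow also yields, differed between the groups. Of 10 neutrophil markers 7 could be tested, and all 7 were lower in the Oligo libraries (background 35.5%, as for the other marker counts). The summed level of the 10 was 41.6 to 78.3 CPM in naive, 29.1 to 51.1 CPM in IL-4/IL-13–treated and 2.85 to 4.77 CPM in Oligo libraries. *Camp*, *Elane*, *Prtn3* and *Ly6g* had no read in any Oligo library. Dendritic cell markers summed to 8.04 to 12.7 CPM in naive and 2.02 to 3.45 CPM in Oligo libraries, with 5 of 5 tested markers lower, and stromal markers to 18.4 to 139 CPM and 5.60 to 54.9 CPM, with 3 of 5 lower. Mast cell and basophil markers summed to 2.04 to 4.17 and 1.85 to 4.35 CPM and erythroid markers to at most 0.107 and 0.15 CPM. Lymphoid markers, none of them testable, summed to 0.536 to 1.25 CPM in naive and 0 to 0.235 CPM in Oligo libraries without overlap, and 5 of 8 had no read in any Oligo library. In bulk RNA, fewer cells of a type and less RNA per cell cannot be told apart, and the part these cells had in the differences below was not tested.

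A gene was called at an adjusted *P* value under 0.05 and at least a 2.5-fold change, the thresholds of the study. Against naive macrophages, 683 genes (4.99% of those tested) were called higher in the Oligo libraries and 1304 (9.53%) lower. Without the fold threshold, 4855 genes (35.5%) were higher and 4859 (35.5%) lower, so that small differences passed the test for many genes. The 4 Oligo libraries lay above all 4 naive libraries for 4205 genes (30.7%) and below all of them for 4046 (29.6%). The median difference over all genes tested was -0.005 on the log2 scale. The 683 higher genes consisted of 226 that IL-4/IL-13 alone also raised, 298 that were called higher than in IL-4/IL-13–treated cells as well and were not called as raised by the cytokines (new genes), and 159 that were called against naive only. The 1304 lower genes consisted of 482 that the cytokines also lowered, 453 that were called lower than in IL-4/IL-13–treated cells as well and were not called as lowered by the cytokines (genes below naive), and 369 called against naive only. All comparisons with naive cells share the same 4 naive libraries, so shared calls are described here and were not tested.

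**Figure D1:**
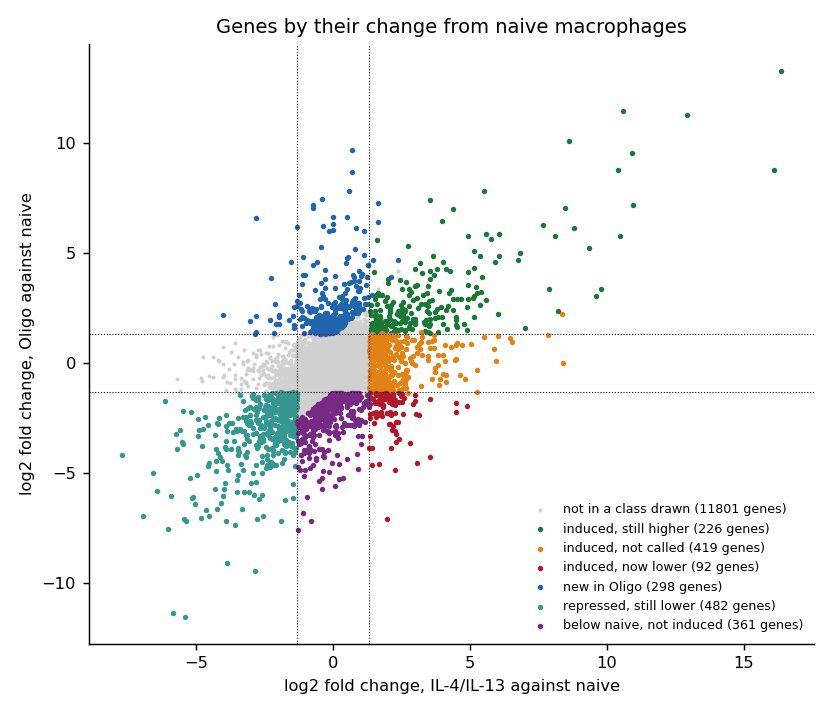
Each point is 1 of the 13679 genes tested, with its log2 fold change in IL-4/IL-13 against naive on the x axis and in Oligo against naive on the y axis, and dotted lines at 2.5-fold. Both axes share the naive libraries. Colors mark the classes, from 226 induced genes still higher (upper right) through 419 not called and 92 now lower to 298 new genes (upper middle) and 361 genes below naive that the cytokines did not induce.

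Promoter sequence was examined for members of these classes that moved together, because the factors named above bind known letters. The sequences are from RefSeq on GRCm38.p6, an earlier build than that of the gene positions, 250 bases before to 50 after each start, and 9950 of the tested gene symbols had one. The core of the C/EBP-ATF response element (CARE), bound by ATF4 with C/EBP partners, was searched as TGATGNAA on both strands. It was in 8.54% of the promoters of new genes (17 of 199), in 5.66% of those of induced genes still higher, in 2.99% of induced genes no longer called and in 2.22% of genes below naive, against 2.83% over all genes tested and 4.51% over all 27025 promoters. Classes that fell held it too, with 4.69% for repressed genes still lower (15 of 320) and 4.62% for induced genes now lower (3 of 65). The palindrome of TTC and GAA with 4 free bases between them, the letters STAT6 prefers, was in 8.81% of the promoters of induced genes still higher, 8.97% of induced genes no longer called, 18.5% of induced genes now lower (12 of 65) and 8.04% of new genes, against 6.72% over all genes tested and 8.01% over all 27025 promoters. For genes below naive the share was 10.5%, and for repressed genes still lower 5.94%. These shares are descriptions, a match is not a binding site, and a promoter without one says nothing of the factor. Shown here are the matches of 3 new genes and of 1 induced gene that rose further (*Aqp9*) for CARE, and of 2 induced genes that stayed far above naive for the STAT6 letters, each 5′ to 3′ along its gene with the match in capitals. CARE matches were also in *Rnase2a*, induced and well below its cytokine level in Oligo libraries, and in *Apoe*, which fell, and are not shown. The STAT6 letters were also in *Cd36*, in *Shmt2*, and in *Isg20* and *Ifi206*, which IL-4/IL-13 lowered, and are not shown. Of the STAT6 matches shown, *Retnla* lay far under its level with IL-4/IL-13 (49.6 against 7750 CPM on average). In *Trib3* and *Chac1* the match is on the other strand, so that the capitals are its reverse complement.
*Asns*, chr6:7693210-7693268 (minus strand): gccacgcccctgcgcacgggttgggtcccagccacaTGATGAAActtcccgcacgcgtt
*Trib3*, chr2:152344028-152344057 (minus strand): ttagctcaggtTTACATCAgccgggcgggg
*Chac1*, chr2:119351013-119351092 (plus strand): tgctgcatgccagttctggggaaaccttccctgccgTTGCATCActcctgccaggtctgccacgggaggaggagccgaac
*Aqp9*, chr9:71162654-71162733 (minus strand): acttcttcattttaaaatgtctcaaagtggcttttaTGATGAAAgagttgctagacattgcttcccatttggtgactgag
*Retnla*, chr16:48842428-48842509 (plus strand): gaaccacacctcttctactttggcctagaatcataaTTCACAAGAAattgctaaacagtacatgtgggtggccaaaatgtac
*Pdcd1lg2*, chr19:29410801-29410882 (plus strand): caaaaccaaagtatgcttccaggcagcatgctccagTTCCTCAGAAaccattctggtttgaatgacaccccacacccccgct
The match began 23 bases before the start in *Asns*, 193 in *Chac1* and 64 in *Aqp9*, and in *Trib3* at base 15 of the transcript. It began 145 bases before the start in *Retnla* and 82 in *Pdcd1lg2*. The *Chac1* promoter also held the STAT6 letters, 216 bases before its start, and no base was shared between these matches.

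Of the 737 genes that IL-4/IL-13 raised (5.39% of genes tested), 226 (30.7%) were still called higher than naive in the Oligo libraries, 419 (56.9%) were not called in either direction and 92 (12.5%) were called lower than naive. Among the 419, the test without the fold threshold found 143 higher, 126 lower and 150 not different. As a check on the shared naive libraries, the cytokine response was also called in 1 pair of mice and read in the other. Of 754 genes raised in mice 1 and 2, 27.7% were called higher than naive in the Oligo libraries of mice 4 and 5 and 10.5% lower, and of 727 raised in mice 4 and 5, 29.4% and 13.3% in mice 1 and 2. The mean log2 CPM over the 737 genes was 1.37 in naive, 3.71 in IL-4/IL-13–treated and 1.97 in Oligo libraries, so that 25.7 ± 1.0% (SD, n = 4 mice) of the rise remained, with 25.5%, 25%, 27.2% and 25.2% in the single mice. Calculated with the median over genes, 13.1% remained. Of the 832 repressed genes (6.08% of genes tested), 482 (57.9%) were still called lower, 335 (40.3%) were not called and 15 (1.8%) were called higher than naive. Over these genes 78.5 ± 2.3% of the fall in mean log2 CPM remained (SD, n = 4 mice). This mean joins genes that fell further with genes that recovered. The 482 had a median log2 change from naive of -2.58 in Oligo libraries and -2.01 with IL-4/IL-13, and the 335 had -0.51 and -1.78. Without the fold threshold, 375 of the 832 were higher than with IL-4/IL-13 and 182 lower. A share by the median over genes was not calculated for them.

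**Figure D2:**
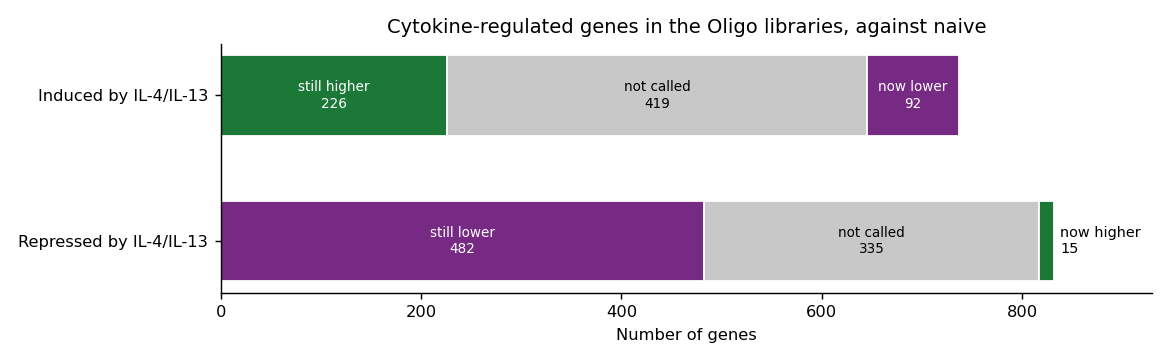
Bars show the number of genes induced (737) or repressed (832) by IL-4/IL-13 that were called higher, not called or called lower in the Oligo libraries against naive. Most induced genes (419) were not called, while 482 repressed genes were still lower and 15 were now higher.

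**Figure D3:**
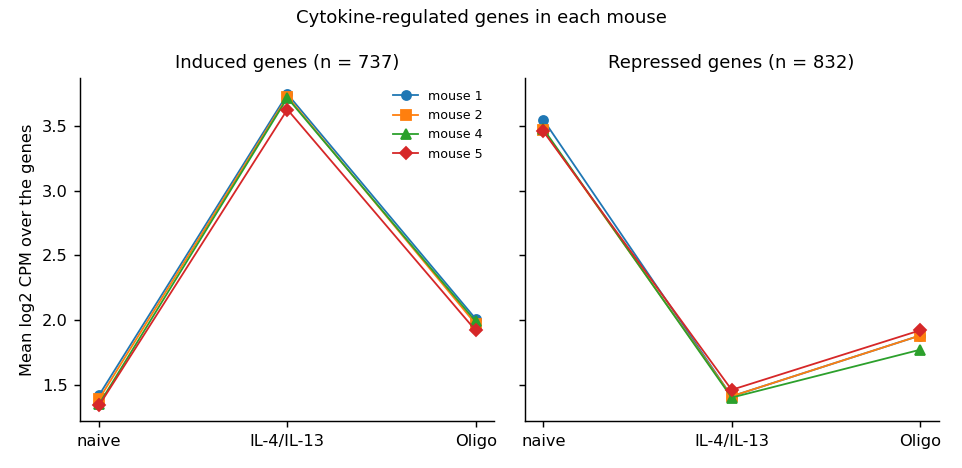
Lines show the mean log2 CPM over the 737 induced genes (left) and the 832 repressed genes (right) in naive, IL-4/IL-13 and Oligo libraries of each of 4 mice. In every mouse the induced genes fell back most of the way, to 1.92 to 2.01, and the repressed genes recovered less, to 1.77 to 1.92.

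Among 37 genes of the IL-4/IL-13 response, 32 were higher than naive in the Oligo libraries and 2 lower (background 35.5% each way), with a median log2 difference of 2.88 from naive, 4.49 for IL-4/IL-13 alone and 0.00 over all genes tested. The list is not typical of induced genes, as 369 of all 737 were higher than naive and 218 lower by the same test. By the 2.5-fold call, 23 of the 31 listed genes that IL-4/IL-13 raised were still higher, against 30.7% of all 737. *Ch25h* and *Ccl7* were new genes, and *Clec10a*, a lectin receptor, was higher in Oligo libraries without a rise with IL-4/IL-13 that passed. The study names several of these genes from its own data, so their direction is no independent evidence. *Arg1* (ENSMUSG00000019987, chromosome 10, 24791118 to 24803817), arginase 1, had 0.0488, 0.0569, 0 and 0.0994 CPM in naive and 179, 164, 140 and 110 CPM in Oligo libraries, against 455 ± 33.2 CPM with IL-4/IL-13 (mean ± SD, n = 4 mice). The groups did not overlap, and the naive libraries held 4 reads together, for a ratio of 2860 (95% counting interval 1120 to 10500) to naive. A gene on the opposite strand overlaps 23.8% of its exons, and whether reads were counted by strand is not stated, so that reads of such pairs cannot be told apart. *Retnla* (ENSMUSG00000061100, chromosome 16, 48662895 to 48664824), which encodes the secreted protein RELMα, had 0, 0.398, 0.0536 and 0 CPM in naive and 57.3, 49.3, 58.4 and 33.4 CPM in Oligo libraries, far under its 7750 ± 406 CPM with IL-4/IL-13. With 8 reads in the naive libraries, of which 7 were in mouse 2, its ratio to naive was 477 (95% counting interval 242 to 1110). *Chil3*, the chitinase-like protein Ym1, had 1500, 1430, 1480 and 1060 CPM against 9.61, 13.1, 9.76 and 8.1 CPM in naive cells, a log2 fold change of 7.08 (SE 0.26), with mouse 5 lowest and 36.8% of its sequence shared with other genes. *Rnase2a*, a secreted ribonuclease, had no read in any naive library and 63.6, 67.8, 75.6 and 50.5 CPM in Oligo libraries, at least 411-fold higher when naive is set at 3 reads per library.

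Some induced genes lay close to their level with IL-4/IL-13 or above it. *Pdcd1lg2* (ENSMUSG00000016498, chromosome 19, 29388319 to 29448882), the gene of the PD-1 ligand PD-L2, had 1.22, 0.739, 0.912 and 0.745 CPM in naive and 53.8, 55.7, 57 and 48.7 CPM in Oligo libraries, close to the 61.3 ± 4.11 CPM of IL-4/IL-13–treated cells. Its log2 fold change was 5.88 against naive (SE 0.11, edgeR adjusted *P* = 1.3e-23) and -0.19 against IL-4/IL-13 (SE 0.06, edgeR adjusted *P* = 0.01). *Mrc1*, the mannose receptor CD206, had 191, 177, 224 and 192 CPM in naive and 646, 709, 764 and 619 CPM in Oligo libraries, and its difference of 0.11 from IL-4/IL-13–treated cells did not pass the test (SE 0.09, edgeR adjusted *P* = 0.27). *Slc7a2*, a transporter of arginine, was at 321, 343, 307 and 335 CPM in Oligo libraries and 346 ± 19.7 CPM with IL-4/IL-13, a difference of -0.08 that did not pass (SE 0.07, edgeR adjusted *P* = 0.31). The same held for *Socs1*, an inhibitor of cytokine signaling, at 74.9, 73.8, 68.6 and 67 CPM in Oligo libraries (difference 0.16, SE 0.10, edgeR adjusted *P* = 0.15). *Klf4* (ENSMUSG00000003032, chromosome 4, 55527139 to 55532528), a transcription factor of this response, had 19.8, 15.6, 24.1 and 20.2 CPM in naive, 189 ± 7.27 CPM with IL-4/IL-13 and 359, 335, 345 and 329 CPM in Oligo libraries. It rose above the cytokine level by a log2 fold change of 0.86 (edgeR adjusted *P* = 6.5e-10). *Aqp9*, a channel for water and glycerol with a CARE match in its promoter, had 0.195, 0.227, 0.161 and 0.149 CPM in naive and 41.3, 42.3, 52.3 and 37.2 CPM in Oligo libraries, 2.34 on the log2 scale above IL-4/IL-13. *Kcnd3*, a potassium channel gene, had no read in naive libraries and 19.1, 18.7, 19.3 and 17.1 CPM in Oligo libraries, at least 118-fold higher. The predicted gene *Gm38575*, also without a naive read, was at 6.68, 7.62, 6.39 and 7.65 CPM in Oligo libraries, at least 45.2-fold higher. Of the 226 genes still higher, 17 were called above IL-4/IL-13 (background 4.79% of all genes) and 61 below (background 7.96%). These genes were chosen by high values in Oligo and IL-4/IL-13 libraries, so both counts are descriptions that the background cannot judge.

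Other induced genes were back near the naive level. *Irf4* (ENSMUSG00000021356, chromosome 13, 30933209 to 30950959), a transcription factor of the type 2 state, had 13.1, 13.1, 13.7 and 14.3 CPM in naive, 308 ± 9.1 CPM with IL-4/IL-13 and 24.7, 25.7, 26.4 and 24.6 CPM in Oligo libraries. The Oligo libraries lay above the naive ones without overlap, by 0.91 (SE 0.11, edgeR adjusted *P* = 7.8e-08), which is under 2.5-fold. *Il4i1*, an enzyme that oxidizes phenylalanine, was at 12.7, 10.8, 9.64 and 9.84 CPM against 6, 5.57, 4.88 and 5.86 CPM in naive and 522 ± 21 CPM with IL-4/IL-13, with 81.1% of its exons overlapped on the opposite strand. *Ccl22*, a chemokine, was at 3.17, 3.62, 3.46 and 3.3 CPM against 2.44, 2.27, 2.52 and 2.98 CPM in naive cells. Its difference of 0.40 did not pass the test (SE 0.20, edgeR adjusted *P* = 0.081, 0.018 to 0.19 over the alternatives), although the groups did not overlap. *Fn1*, *Stac2* and *Nes*, which encode fibronectin, an adaptor protein and the filament protein nestin, rose 22.5-, 14.2- and 13.3-fold with the cytokines and did not pass against naive, with log2 differences of 0.85 (edgeR adjusted *P* = 0.057), 0.38 (0.063) and -0.40 (0.095). With the mouse as a block, all 4 passed at edgeR adjusted *P* = 0.018 for *Ccl22*, 0.00019 for *Fn1*, 0.042 for *Stac2* and 0.038 for *Nes*, with log2 differences of 0.41, 0.91, 0.38 and -0.41. For *Socs2*, a suppressor of cytokine signaling, 5.4, 5.97, 4.66 and 5.55 CPM remained against 3.66, 2.67, 2.2 and 4.17 CPM in naive cells and 64 ± 2.74 CPM with IL-4/IL-13. *Egr2*, a transcription factor, stood between, with 11.8, 12.8, 14.4 and 15.7 CPM in naive, 107, 107, 101 and 105 CPM in Oligo libraries and 410 ± 13.2 CPM with IL-4/IL-13. *Mgl2*, a lectin receptor, had 3.07, 3.87, 3.54 and 2.88 CPM in naive, 118, 96.9, 125 and 92.9 CPM in Oligo libraries and 383 ± 7.21 CPM with IL-4/IL-13.
Genes of cell fusion were named after their values were seen. *Dcstamp* and *Ocstamp*, which encode membrane proteins needed for fusion of macrophages, rose with IL-4/IL-13 to a mean of 145 and 115 CPM. In Oligo libraries they were at 1.84 and 1.21 CPM, where naive cells had 6.49 and 0.491 CPM, a log2 change from naive of -1.81 for *Dcstamp* and 1.29 for *Ocstamp*. *Atp6v0d2*, a subunit of the proton pump of the same cells, stayed at 895 CPM against 717 CPM with IL-4/IL-13 and 62.1 CPM in naive cells.

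**Figure D4:**
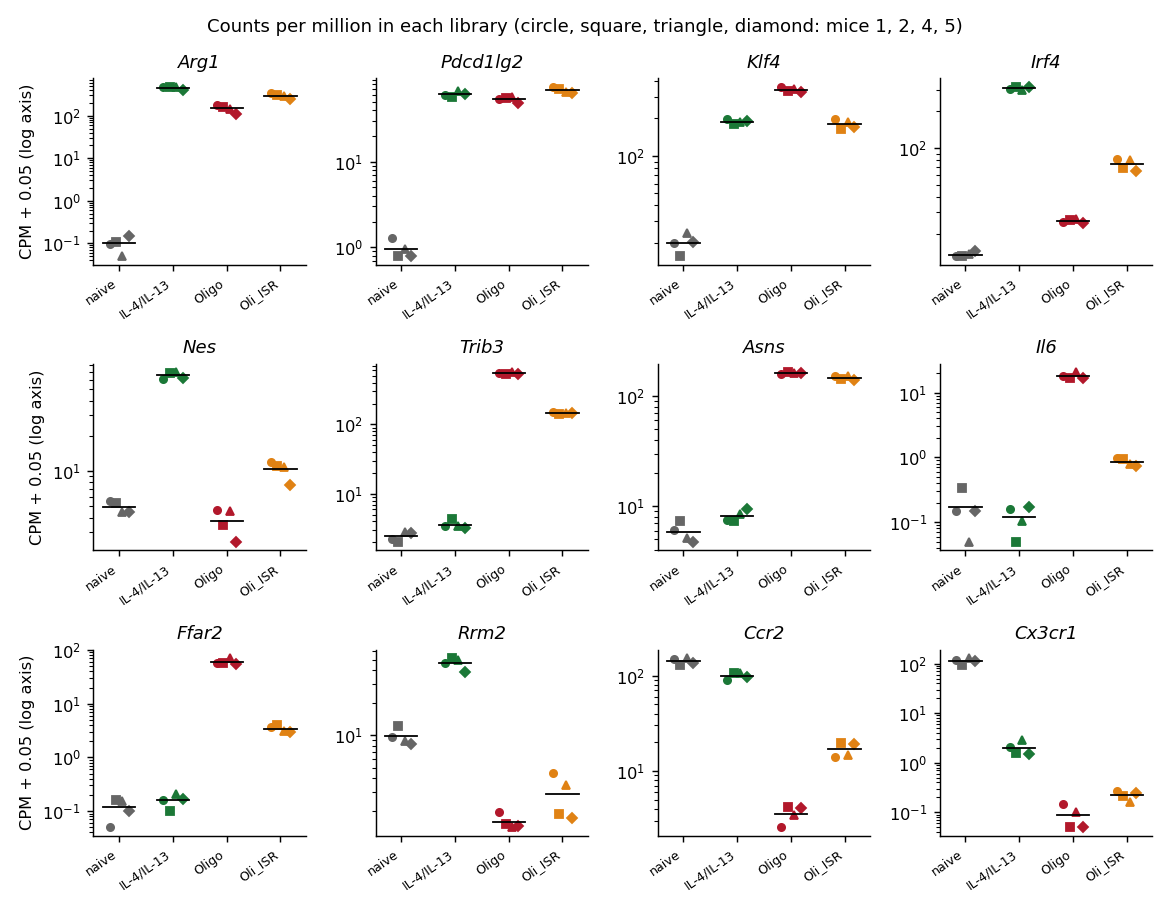
Points show CPM (plus 0.05, on a log axis) of 12 genes in each naive, IL-4/IL-13, Oligo and Oli_ISR library, with a marker shape per mouse and a bar at the group mean. *Arg1*, *Pdcd1lg2* and *Klf4* stayed above naive in all 4 Oligo libraries, *Irf4* and *Nes* were back near naive, *Trib3*, *Asns*, *Il6* and *Ffar2* were above naive in all Oligo libraries, *Il6* and *Ffar2* far less so in Oli_ISR libraries (0.809 and 3.38 CPM), and *Rrm2*, *Ccr2* and *Cx3cr1* lay below naive.

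The 92 induced genes that were now lower than naive included genes of DNA replication and mitosis. Most of the 92 had few reads, as only 20 had 50 or more on average over naive and Oligo libraries, and 4 had no Oligo read. Of 29 such genes in the list, 29 rose with IL-4/IL-13 (background 30.1%). In the Oligo libraries 23 were lower and 4 higher than naive (background 35.5% each way), with a median log2 difference of -0.88, and 9 were among the 92. *Rrm2* (ENSMUSG00000020649, chromosome 12, 24757811 to 24764145), the small subunit of ribonucleotide reductase, had 9.56, 12.2, 8.79 and 8.3 CPM in naive, 47 ± 5.84 CPM with IL-4/IL-13 and 1.89, 1.46, 1.36 and 1.4 CPM in Oligo libraries, with 43.3% of its exons overlapped on the opposite strand. Every Oligo library was under every naive one, and the log2 fold change was -2.66 (SE 0.22, edgeR adjusted *P* = 1.2e-10). *Tk1*, thymidine kinase, had 9.47, 12.2, 7.4 and 8.89 CPM in naive and 1.61, 1.41, 1.26 and 1.5 CPM in Oligo libraries. *Pclaf*, which binds the replication clamp PCNA, fell by 3.56 on the log2 scale, *Uhrf1*, which maintains DNA methylation, by 2.37, and *Kif15*, a motor protein of the spindle, by 1.98. *Aurkb* and *Birc5*, a kinase and its partner in chromosome segregation, fell by 1.86 and 1.81. *Pecam1*, the adhesion molecule CD31, is no gene of the cell cycle and was also raised by IL-4/IL-13 and lower than naive with oligomycin, with 10.7, 10.5, 12.2 and 9.74 CPM in naive, 31.9 ± 1.57 CPM with IL-4/IL-13 and 2.41, 2.3, 2.09 and 2.4 CPM in Oligo libraries.
Of 10 MHC class II genes tested, 9 rose with IL-4/IL-13 (background 30.1%) and 9 were lower than naive in Oligo libraries (background 35.5%, median -1.57), and 8 were in both counts. By the 2.5-fold call only *H2-DMa* was among the 92. *Ciita*, the master regulator of these genes, had 108, 85.2, 103 and 101 CPM in naive, 238 ± 10.1 CPM with IL-4/IL-13 and 27.9, 29.3, 28.4 and 30.1 CPM in Oligo libraries. *H2-Aa* and *H2-Eb1*, chains of the molecules that present peptides, fell by 1.46 and 1.93, and *H2-DMa*, which loads peptides, by 1.69. *Ctss*, which encodes a protease that cuts the invariant chain, rose by 0.30 against naive, and *H2-Ob*, a chain of a modulator of peptide loading, was lower than naive with IL-4/IL-13 too. Dendritic cells, whose markers were also lower, express these genes as well, and their part was not tested.

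Of the 482 repressed genes that were still lower, 98 were called lower again than with IL-4/IL-13 (background 7.96% of all genes). These genes were chosen partly by low values in the Oligo libraries, which favors such calls, so the count is a description. *Cx3cr1* (ENSMUSG00000052336, chromosome 9, 119877749 to 119898945), the fractalkine receptor of monocytes and resident macrophages, had 121, 93.8, 130 and 113 CPM in naive and 1.97 ± 0.63 CPM with IL-4/IL-13, and the 4 Oligo libraries held 3 reads together (0.0947, 0, 0.0524 and 0 CPM). *Adgre4*, an adhesion receptor of the same family as F4/80, went from 129, 110, 144 and 123 CPM to 0, 0, 0 and 0.15 CPM, and *Gpr34*, a lysophospholipid receptor, from 17.3, 16.5, 16.2 and 16.5 CPM to 0, 0.047, 0.0524 and 0 CPM. Their ratios to naive were 0.000321 (95% counting interval 6.61e-05 to 0.000938) for *Cx3cr1*, 0.000291 (95% counting interval 6e-05 to 0.00085) for *Adgre4* and 0.00147 (95% counting interval 0.000178 to 0.00533) for *Gpr34*. In all 3 the Oligo libraries lay at or near 0. *Cd300e*, an activating receptor of myeloid cells, went from 39.9, 46.6, 42.2 and 51.2 CPM to 0.0947, 0.376, 0.262 and 0.2 CPM. *Fpr2*, a formyl peptide receptor that shares 45.8% of its sequence with other genes, went from 14.8, 17.6, 13.2 and 13.9 CPM to 0.0473, 0.188, 0.105 and 0.05 CPM. *Ighm*, the heavy chain of IgM, went from 115, 137, 101 and 93.8 CPM to 0.71, 0.988, 0.681 and 0.849 CPM. The lymphoid marker sum given above was also lower in Oligo libraries. That sum was 0.536 to 1.25 CPM in naive and 0.263 to 1.23 CPM with IL-4/IL-13, and the part of lymphoid cells was not tested. Among genes that define macrophages, *Lyz2*, lysozyme, had 21200, 26500, 25000 and 21600 CPM in naive and 3770, 3780, 4310 and 3900 CPM in Oligo libraries, *Cd14*, the lipopolysaccharide co-receptor, fell by 3.06, and *Aif1*, an actin-binding protein, by 4.36. In the whole list of 16, 12 were lower and 4 higher than naive (background 35.5% each way), with a median of -1.13 in Oligo and -0.97 in IL-4/IL-13–treated cells.
*Apoe*, the lipid carrier apolipoprotein E, had 6250, 9730, 6780 and 5770 CPM in naive and 1200, 1300, 1140 and 1160 CPM in Oligo libraries. *Sesn1*, a p53 target that restrains growth signaling, fell by 3.67, and *Ptpn6*, the phosphatase SHP-1 that dampens receptor signaling, by 1.97. *Il10*, an anti-inflammatory cytokine, was at 0.426, 0.376, 0.367 and 0.75 CPM against 11, 13.2, 7.99 and 10.2 CPM in naive cells, and *Il1b*, a proinflammatory one, at 0.237, 0.564, 0.105 and 0.949 CPM against 15.6, 16.9, 14.3 and 16.1 CPM. Both were lower with IL-4/IL-13 alone too, by -4.06 and -4.98 on the log2 scale.

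Type I interferon–stimulated genes took another course. IL-4/IL-13 lowered 23 of 26 (background 30.4%), with a median of -3.15. In Oligo libraries 12 were lower than naive and 1 higher (background 35.5% each way), with a median of -0.15. Against IL-4/IL-13–treated cells 24 of 26 were higher (background 34.0%). The median kept its sign under each of the 3 other scalings tried. *Ifit3*, whose product holds back translation of viral RNA, had 279, 306, 230 and 233 CPM in naive, 3.7 ± 0.619 CPM with IL-4/IL-13 and 79.3, 94.3, 48.1 and 100 CPM in Oligo libraries, where mouse 4 was lowest. *Mx2*, which encodes an antiviral GTPase, had 34.1, 27.9, 23.8 and 25.2 CPM in naive, 2.31 ± 0.174 CPM with IL-4/IL-13 and 13.4, 12.7, 8.38 and 14.6 CPM in Oligo libraries, and fell by 1.18 from naive. *Ifi47*, an induced GTPase, fell by 0.86, and *Isg20*, an exonuclease, by 0.83, the latter no longer past the test without mouse 1 (edgeR adjusted *P* = 0.051). Genes that did not pass against naive, named after their values were seen, included *Rsad2*, which encodes the antiviral enzyme viperin, with a difference of 0.15, *Isg15*, a ubiquitin-like protein, with 0.29, *Ifi44* with 0.28 and *Zbp1*, a nucleic acid sensor, with 0.48.
Of the 15 repressed genes that were now above naive, *Cd86* (ENSMUSG00000022901, chromosome 16, 36424044 to 36486443), a ligand for T cell costimulation, had 24.5, 26, 21 and 22.3 CPM in naive, 6.02 ± 0.591 CPM with IL-4/IL-13 and 94.8, 112, 104 and 98 CPM in Oligo libraries. Every Oligo library was above every naive one, by 2.12 (SE 0.14, edgeR adjusted *P* = 9.4e-13). *Tox2*, a transcription factor, rose from 6.69, 7.28, 7.19 and 10.2 CPM to 51.1, 48.1, 55.1 and 51.1 CPM, and *Gdf15*, a secreted stress hormone, from 7.03, 7.39, 5.68 and 7.95 CPM to 41.3, 40.4, 41.4 and 43.8 CPM. *Ptger3*, a prostaglandin E2 receptor, rose by 2.21, *Med12l*, related to a Mediator subunit, by 2.16, and *Ifi206*, an interferon-inducible gene with 37.3% shared sequence, by 2.20.

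The 298 new genes (2.18% of genes tested) included much of the ISR. In the list of its transcription factors and effectors, 18 of 22 tested were higher than naive and none lower (background 35.5% each way), with a median of 1.54 against -0.10 with IL-4/IL-13 alone, and 12 were new genes. The study names several of them from its own data, so their direction is no independent evidence. *Atf4* (ENSMUSG00000042406, chromosome 15, 80139372 to 80141745) had 121, 123, 103 and 117 CPM in naive, 136 ± 8.76 CPM with IL-4/IL-13 and 706, 706, 699 and 706 CPM in Oligo libraries, with no overlap and a log2 fold change of 2.60 (SE 0.08, edgeR adjusted *P* = 1.1e-19). *Trib3* (ENSMUSG00000032715, chromosome 2, 152179337 to 152191958), a pseudokinase that restrains ATF4 activity, rose from 2.15, 1.99, 2.79 and 2.63 CPM to 546, 531, 561 and 529 CPM, with 3.55 ± 0.502 CPM in IL-4/IL-13–treated cells. Its log2 fold change of 7.82 (SE 0.11) had the smallest adjusted *P* of the named genes, 4e-25 with edgeR. *Chac1*, which degrades glutathione, went from 0.488, 0.341, 0.322 and 0.348 CPM to 25.6, 23.4, 24.5 and 24.8 CPM. *Atf5*, a related transcription factor, rose by 3.41, and *Ddit3*, which encodes CHOP, by 3.03, though 82.4% of the *Ddit3* exons are overlapped on the other strand. *Ppp1r15a*, the stress-induced subunit that directs a phosphatase to eIF2α, rose from 40, 40.2, 34.5 and 47.1 CPM to 184, 176, 193 and 184 CPM, where IL-4/IL-13 alone gave 28.5 ± 2.43 CPM. *Slc25a33*, a mitochondrial carrier of pyrimidine nucleotides that the study names, rose from 3.9, 5.4, 3.65 and 3.08 CPM to 13, 11.9, 14.4 and 12.7 CPM.

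Genes for making, importing and charging amino acids rose with them. In the list of serine, one-carbon, asparagine and proline synthesis, 12 of 14 were higher and 1 lower (background 35.5% each way), with a median of 1.98. *Asns* (ENSMUSG00000029752, chromosome 6, 7671667 to 7728461), asparagine synthetase, had 6, 7.33, 5.09 and 4.72 CPM in naive, 8.15 ± 0.973 CPM with IL-4/IL-13 and 159, 163, 161 and 161 CPM in Oligo libraries, a log2 fold change of 4.80 (SE 0.11, edgeR adjusted *P* = 4.1e-22). *Phgdh*, the first enzyme of serine synthesis, rose by 5.62, *Mthfd2* and *Shmt2*, mitochondrial enzymes of one-carbon metabolism, by 3.93 and 1.46, and *Aldh18a1*, an enzyme of proline synthesis, by 3.20. Among amino acid transporters, 10 of 14 were higher and 2 lower (background 35.5% each way, median 1.40). *Slc7a1*, which carries arginine and lysine, went from 6.64, 5.63, 7.03 and 6.21 CPM to 139, 138, 155 and 141 CPM. *Slc6a9*, a glycine transporter, rose by 4.02 and *Slc7a5*, which exchanges large neutral amino acids, by 3.72. Of the 20 cytosolic aminoacyl-tRNA synthetases, 19 were higher and none lower (background 35.5% each way, median 1.35), and 8 were new genes. *Aars1*, for alanine, rose from 58.2, 64.5, 59.1 and 58.6 CPM to 505, 508, 507 and 501 CPM, *Eprs1*, for glutamate and proline, by 2.55, *Yars1*, for tyrosine, by 2.13, and *Cars1*, for cysteine, by 2.09.
Mitochondrial chaperones and proteases rose as well, 13 of 15 higher and 2 lower (background 35.5% each way, median 0.86). *Hspa9*, the chaperone mortalin, had 135, 143, 142 and 139 CPM in naive, 230 ± 7.19 CPM with IL-4/IL-13 and 1000, 1020, 1040 and 1020 CPM in Oligo libraries, and rose by 2.87 (SE 0.05, edgeR adjusted *P* = 3.8e-24). *Lonp1*, a protease of the matrix, rose by 1.82 and *Dnaja3*, a co-chaperone, by 2.02, while *Hspd1*, the chaperonin HSP60, rose by 1.69 without being a new gene. For chaperones of the endoplasmic reticulum (ER) the median was 0.22, against 0.48 with IL-4/IL-13 alone, with 13 of 20 higher and 5 lower (background 35.5% each way). *Hyou1* and *Pdia4*, a chaperone and a disulfide isomerase of the ER, rose by 1.18 and 1.12, less than 2.5-fold. *Ern1*, the ER stress sensor IRE1, rose by 1.56 and was the 1 new gene of that list. *Sdf2l1*, an ER co-chaperone, rose with the cytokines to 217 ± 4.66 CPM and was at 42.9, 45.2, 49.4 and 44 CPM in Oligo libraries, under the 82.1, 106, 82 and 72.1 CPM of naive cells.

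Other new genes with large rises lay outside these lists. *Ffar2* (ENSMUSG00000051314, chromosome 7, 30517773 to 30536075), a receptor for short-chain fatty acids, had 0, 0.114, 0.107 and 0.0497 CPM in naive and 57.4, 57, 70.9 and 55.9 CPM in Oligo libraries, with mouse 4 highest. The naive libraries held 5 reads in sum, and the ratio was 924 (95% counting interval 396 to 2850). *Soat2* (ENSMUSG00000023045, chromosome 15, 102058797 to 102071904), which esterifies cholesterol, went from 0.195, 0.171, 0.0536 and 0.0497 CPM to 52.6, 50.3, 52.6 and 52.3 CPM, a ratio of 443 (95% counting interval 233 to 970). *F5*, coagulation factor V, rose from 0.634, 0.682, 0.804 and 0.398 CPM to 79.3, 83.8, 108 and 72.3 CPM, and *Gbp11*, a guanylate-binding protein gene with 34.7% of its sequence in other genes, had a ratio of 188 (95% counting interval 102 to 392). *Ch25h*, the enzyme that makes 25-hydroxycholesterol, was picked after its values were seen. It was at 0.634 to 1.48 CPM in naive, 1.58 to 2.45 CPM with IL-4/IL-13 and 66.7 to 101 CPM in Oligo libraries, but 1.39 to 1.75 CPM in Oli_ISR libraries.
*Il6* (ENSMUSG00000025746, chromosome 5, 30218112 to 30224979), the gene of the cytokine interleukin-6, had 0.0976, 0.284, 0 and 0.0994 CPM in naive and 18.3, 16.5, 20.4 and 16.8 CPM in Oligo libraries, a ratio of 153 (95% counting interval 80.4 to 335). Of 22 cytokines, chemokines and enzymes of the response to lipopolysaccharide, 5 were higher and 13 lower than naive (background 35.5% each way, median -0.85). IL-4/IL-13 alone lowered 17 of them (background 30.4%) and raised 1 (background 30.1%), with a median of -1.56. Against IL-4/IL-13–treated cells 12 were higher (background 34.0%) and 1 lower (background 32.2%) in Oligo libraries (median 0.83). *Ccl7*, a chemokine for monocytes, rose from 1.46, 1.02, 0.965 and 0.745 CPM to 17.7, 20.4, 19.1 and 14.5 CPM. *Acod1*, the itaconate-producing enzyme, was at 10.9, 14.2, 11.1 and 19.7 CPM against 8.64, 8.24, 7.94 and 8 CPM (log2 fold change 0.77, edgeR adjusted *P* = 0.008). *Nos2*, inducible nitric oxide synthase, was at 0.379, 0.188, 0.419 and 0.35 CPM against 0.293, 0.114, 0.375 and 0.248 CPM, and its difference of 0.35 did not pass (SE 0.48, edgeR adjusted *P* = 0.53).

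The 453 genes below naive (3.31% of genes tested) included the 92 induced genes now lower. *Ccr2* (ENSMUSG00000049103, chromosome 9, 123901982 to 123913594), the receptor that draws monocytes to CCL2, had 151, 130, 153 and 135 CPM in naive, 99.6 ± 8.57 CPM with IL-4/IL-13 and 2.51, 4.09, 3.4 and 4 CPM in Oligo libraries, a log2 fold change of -5.34 (SE 0.13, edgeR adjusted *P* = 1.7e-21). *Tmem176b* and *Tmem176a*, neighboring genes of intracellular membrane channels, fell together. *Tmem176b* had 363, 491, 372 and 347 CPM in naive and 2.98, 3.81, 3.72 and 3.65 CPM in Oligo libraries, and *Tmem176a* 173, 215, 169 and 156 CPM and 2.94, 2.73, 2.3 and 2.5 CPM. In all 3 genes each Oligo library lay far under each naive one. *Kmo*, an enzyme of tryptophan breakdown that fell by less than 2.5-fold with IL-4/IL-13, fell by 5.10, and *Rtn1*, an ER membrane protein, by 4.85. *Angptl4*, a lipase inhibitor and PPAR target, fell by 3.35, and *Osgin1*, an NRF2 target, by 2.07. The 7 neutrophil markers tested were all among the 453 genes. *S100a9*, the most abundant of the 10 in naive libraries, had 16.8, 27.2, 17.6 and 11.7 CPM in naive and 1.8, 1.22, 1.78 and 0.899 CPM in Oligo libraries, and *Ngp*, a granule protein, 12.5, 19.3, 14.2 and 10.1 and 0.568, 0.47, 0.995 and 0.6 CPM.
Those transcripts of mitochondrial DNA that could be tested were lower than naive also. Of 13 protein-coding genes, only 7 had enough counts to be tested. All 7 were lower (background 35.5%, median -1.09), 2 of them by 2.5-fold (background 9.53%). With IL-4/IL-13, 6 of the 7 rose (background 30.1%, median 0.78). *mt-Nd4l*, *mt-Co2*, *mt-Co3*, *mt-Atp6* and *mt-Atp8* had no read in any naive, IL-4/IL-13, Oligo or Oli_ISR library. Over the 4 naive libraries *mt-Nd3* had 1 read and *mt-Co1* had 271952. Why these genes lacked reads was not tested, and their counts are not taken as a lack of expression. *mt-Nd1*, a subunit of complex I, had 442, 620, 484 and 708 CPM in naive, 1020 ± 220 CPM with IL-4/IL-13 and 180, 213, 217 and 209 CPM in Oligo libraries. The Oligo libraries were under all naive ones, with a log2 fold change of -1.46 (SE 0.16, edgeR adjusted *P* = 1.4e-08). *mt-Cytb*, of complex III, fell by 1.36 and *mt-Co1*, of complex IV, by 1.21, with 63.9% of the *mt-Co1* sequence also in other genes. Nuclear genes of the ATP synthase, the target of oligomycin, were near naive, with 3 of 18 higher and 5 lower (background 35.5% each way) and a median of -0.07. With IL-4/IL-13, 17 of 18 had risen (background 30.1%, median 0.74). *Atp5f1b*, the catalytic beta subunit, was 1 of the 3 higher genes, at 700, 718, 740 and 714 CPM against 374, 473, 404 and 388 CPM in naive and 1050 ± 35.9 CPM with IL-4/IL-13. *Atp5mf* and *Atp5if1*, a membrane subunit and the inhibitory factor, fell by 0.67 and 0.41.

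Lists of metabolism and survival had medians nearer to 0, and their counts are to be read against the 35.5% of all genes higher and 35.5% lower. Genes of glucose uptake and glycolysis had a median of 0.39, with 14 of 24 higher and 8 lower. With IL-4/IL-13 alone the median was 0.31, with 12 higher (background 30.1%) and 7 lower (background 30.4%). *Slc2a1*, the glucose transporter GLUT1, rose from 29.1, 29.9, 31.2 and 29.4 CPM to 112, 114, 122 and 102 CPM, *Slc16a1*, a carrier of lactate, by 2.28 and *Pfkp*, a phosphofructokinase, by 1.69, whereas *Aldoc*, an aldolase, fell by 2.26. With IL-4/IL-13 alone *Slc16a1* and *Pfkp* rose more, by 2.85 and 2.11. *Slc2a1* rose less, by 0.97, and *Aldoc* fell by 1.47. Of 16 other hypoxia targets, 6 were higher and 4 lower (median 0.08). *Ero1a*, an oxidase of the ER that is also an ISR target, rose 6.51-fold, and *P4ha1* and *Epas1*, a collagen hydroxylase subunit and the factor HIF-2α, by 0.70 and 0.59 on the log2 scale. The *Epas1* difference no longer passed without mouse 1 (0.50, edgeR adjusted *P* = 0.061). NRF2 targets had a median of 0.20 (9 of 16 higher, 3 lower), with *Gclm* and *Gclc*, subunits of the enzyme that starts glutathione synthesis, up by 0.85 and 0.72. In cholesterol synthesis, where IL-4/IL-13 had raised 20 of 23 genes (background 30.1%), 6 were higher and 10 lower than naive (median -0.17). *Stard4*, a sterol carrier, fell by 1.22 and *Acat2*, which makes acetoacetyl-CoA, by 1.21. Genes of fatty acid and sterol handling split evenly, 9 of 21 in each direction, and their median of -0.01 changed sign to 0.04 with library totals in place of TMM scaling. *Cd36*, a fatty acid receptor that IL-4/IL-13 raised, was at 1330, 1470, 1480 and 1410 CPM against 368, 421, 471 and 469 CPM in naive cells, and *Fabp4*, a fatty acid carrier, rose by 1.84.
Of 15 genes of p53 signaling and cell death, 7 were higher and 5 lower (background 35.5% each way, here and for the lists that follow). *Bcl2*, which blocks apoptosis, rose from 2.68, 2.1, 2.15 and 2.53 CPM to 34.1, 33.7, 36.4 and 30 CPM and *Cdkn1a*, the cell cycle inhibitor p21, by 1.03, while *Pmaip1*, the death promoter NOXA, fell by 2.00. For the IL-4 and IL-13 receptor pathway the median was -0.18, with 6 of 15 higher and 8 lower. *Jak2*, a kinase bound to cytokine receptors, rose by 1.38. *Cish*, a STAT-induced inhibitor, was at 14.2, 14.8, 13 and 12.5 CPM against a mean of 1.84 CPM in naive cells, and rose by 2.88. With IL-4/IL-13 alone it was at 89.2 ± 4.99 CPM. Among eIF2 kinases, eIF2B subunits and the relay from mitochondria, 8 of 13 were higher and 3 lower (median 0.19). *Eif2b3*, a subunit of the exchange factor that ISRIB binds, rose by 1.28 and *Eif2ak3*, the ER kinase PERK, fell by 0.85.

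**Figure D5:**
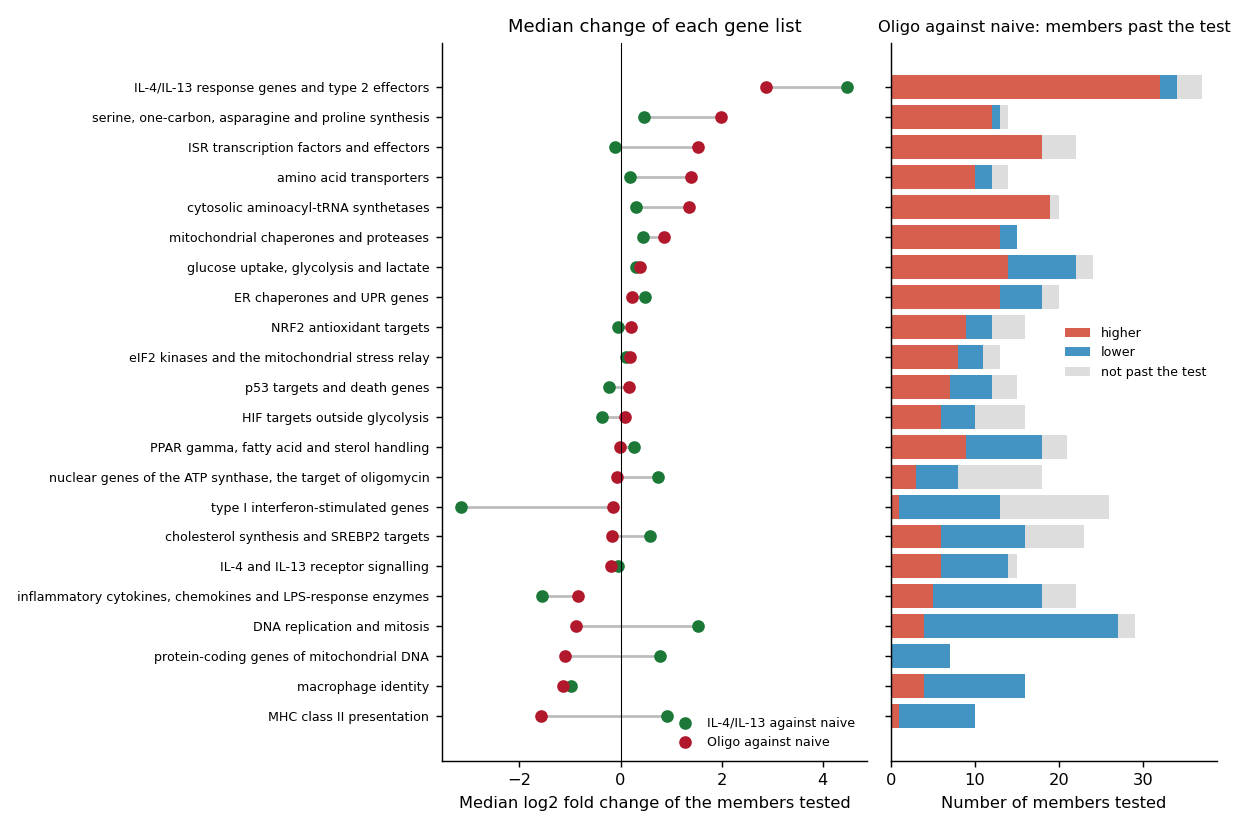
Left, the median log2 fold change from naive over the tested members of 22 gene lists, with IL-4/IL-13 in green and Oligo in red. Right, the number of members higher, lower or not past the test in Oligo against naive. The medians differ most between the groups for interferon genes (-3.15 and -0.15), MHC class II (0.92 and -1.57) and DNA replication and mitosis (1.54 and -0.88).

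Between the groups with conflicting labels, 2717 genes (19.9% of those tested) were higher and 2917 (21.3%) lower in Oligo than in Oli_ISR libraries, and at 2.5-fold 156 (1.14%) and 202 (1.48%). Both the classes and this comparison use the Oligo libraries, so the following counts are descriptions. Of the 298 new genes, 237 were higher in Oligo than in Oli_ISR and 2 lower. Of the 453 genes below naive, 268 were lower and 1 higher. Of the 226 induced genes still higher than naive, 51 were higher and 81 lower. *Il6* was at 18.3, 16.5, 20.4 and 16.8 CPM in Oligo and 0.809 ± 0.109 CPM in Oli_ISR libraries, *Ffar2* at 3.38 ± 0.466 CPM, *F5* at 4 ± 0.441 CPM and *Trib3* at 146 ± 4.35 CPM in the latter. For *Asns*, with 146 ± 5.85 CPM in Oli_ISR, the difference of 0.15 did not pass (SE 0.08, edgeR adjusted *P* = 0.15), and for *Mthfd2* it was 0.16 (edgeR adjusted *P* = 0.061). *Cars1* differed by -0.03 (edgeR adjusted *P* = 0.7). Over whole lists, more such genes were higher than lower in Oligo against Oli_ISR libraries. The higher ones were 16 of 20 synthetases (1 lower), 14 of 22 ISR genes (1 lower) and 7 of 14 genes of amino acid synthesis (0 lower). For amino acid transporters they were 6 of 14 (3 lower), and for mitochondrial chaperones and proteases 7 of 15 (0 lower). In the other direction, *Irf4* was at 74 ± 8.58 CPM, *Arg1* at 295 ± 38 CPM and *Retnla* at 280 ± 105 CPM in Oli_ISR libraries, all higher than in Oligo libraries, and *Ccr2* at 16.9 ± 2.92 CPM. Of the 37 genes of the IL-4/IL-13 response, 22 were lower in Oligo than in Oli_ISR libraries and 6 higher. Among the higher ones, *Mgl2* had a mean of 108 CPM in Oligo and 65.7 CPM in Oli_ISR, and *Klf4* 342 and 180 CPM. Whichever reading of the labels holds, both groups had oligomycin with IL-4/IL-13, and the readings differ only in whether the values above were measured with or without ISRIB.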

How the data were processed

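Libraries of 24 samples were sequenced as reads of 150 bases. The authors trimmed reads (cutadapt 1.8 in the submitters' processing notes), aligned them to GRCm39 (STAR 2.7) and counted reads per gene (HTSeq 0.9.1), and the deposited table holds these raw counts for 56884 genes, with 12.74 to 15.231% of reads in totals that name no gene, left out here. The strand setting is not given in the sources used here. A second deposited table, of TPM, was not used because its header and columns differ in number. All count columns were matched to samples by name, and M-CSF is given as 50 ng/ml or as 50 µg/ml in different sources.

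Counts were analyzed in R 4.3.3 with edgeR 4.0.16 (TMM scaling, filterByExpr, 1 model over all 24 libraries with a coefficient per condition, quasi-likelihood *F* test, Benjamini-Hochberg adjustment over 13679 genes). Mouse was not a term, and was a block in an alternative. The numbers pair the samples because the labels give the same mouse (deviations of the same mouse had a median correlation of 0.24 over 60 pairs of libraries, 0.05 to 0.50 between naive and Oligo, and -0.05 between mice). The libraries of a group come from separate mice. Retained response was the mean log2 CPM (prior count of 2) over genes, per mouse. Exact counting intervals (95%) cover counting error only, and a gene without reads was set at 3 reads per library. The median biological coefficient of variation was 7.06%.

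The members and lists were chosen with earlier results of these data known. Named genes are those the study names, the 6 with the largest change in each class with at least 50 reads on average in naive and Oligo libraries and the same direction in every mouse (for induced genes not called, the 6 with the largest rise with IL-4/IL-13), up to 4 of each list, and a few said to be picked later. Some genes that this rule names are not reported here. Overlap of exons (GENCODE, GRCm39) and shared 31-base words were computed. On simulated counts for this comparison, 100% of 100 genes changed 2.5-fold and of 100 changed 4-fold reached an adjusted *P* under 0.05 among 12994, and 3.85% of the genes that did were unchanged ones. The fold threshold was not part of that test. The changed genes were drawn only from genes with enough expected reads in every library, and the counts from the spread that the model had fitted. Far fewer genes were changed than were called in the data. The recovery therefore does not describe genes with few reads, such as those near 0 in naive or Oligo libraries.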

Additional observations from a re-analysis of the deposited data

Results flagged for a closer look

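In 4 libraries of a group, 1 value was set apart when its gap to the nearest of the others took more of the whole range than Dixon's 95% limit allows. Over 116 pairs of a gene and a group, 6 values were, and chance sets apart about 1 in 20. *Chil3* was at 1060 CPM in the Oligo library of mouse 5, against 1430 to 1500 CPM in the other 3. *Atf4* was at 699 CPM in the Oligo library of mouse 4, against 706 CPM in the others. *Ffar2* reached 70.9 CPM in the Oligo library of mouse 4, against 55.9 to 57.4 CPM. *Soat2* was at 50.3 CPM in the Oligo library of mouse 2, against 52.3 to 52.6 CPM. *Tox2* was at 10.2 CPM in the naive library of mouse 5, against 6.69 to 7.28 CPM. *Med12l* was at 6.25 CPM in the Oligo library of mouse 1, against 8.37 to 8.64 CPM. Each gene differed from naive far beyond these gaps, and in each the 4 Oligo libraries were above all 4 naive libraries.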

How the results depend on the processing

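Counts are given in the order higher, lower, induced still higher, induced not called, induced now lower, new, below naive, repressed still lower, repressed not called and repressed now higher, which were 683, 1304, 226, 419, 92, 298, 453, 482, 335 and 15. With at least 10 reads in every library they were 369, 639, 110, 234, 21, 154, 204, 209, 231 and 7, with fewer genes tested. Without overlapping genes they were 283, 525, 108, 159, 45, 119, 180, 207, 145 and 7. With a test against 2.5-fold (glmTreat) they were 449, 786, 142, 314, 29, 191, 247, 274, 205 and 6, and with no fold threshold 4855, 4859, 2421, 862, 834, 2213, 1835, 2683, 842 and 637. At 2-fold, 1108 were higher, 366 induced genes still higher, 167 now lower, 454 new, 756 repressed still lower and 37 now higher. With the mouse as a replicate block they were 685, 1311, 229, 419, 92, 299, 459, 485, 333 and 15, and the pairing moved no count by over 1.5 times and changed no call of a named gene beyond the 4 given with it above. DESeq2 gave 768 higher and 1684 lower, upper-quartile scaling 665 and 1337, library totals 732 and 1238, no filter 869 and 1887, and the naive, IL-4/IL-13 and Oligo libraries alone 621 and 1258. Leaving out 1 mouse gave 695 to 712 higher and 1286 to 1304 lower. The retained share of the induced response was 13.1% by the median over genes and 26% with a prior count of 0.5. Of the values of single genes under the alternatives, 1478 kept direction and side of the threshold, 16 came past it (*Ccl22*, *Fn1*, *Stac2* and *Nes*), 9 fell short and 0 reversed. Adjusted *P* (edgeR or DESeq2) ranged from 0.00019 to 0.19 for *Fn1*, 6.4e-05 to 0.051 for *Isg20* and 0.0011 to 0.061 for *Epas1*, the latter pair lost without mouse 1. Depth limits genes with few reads, since only 186 of the 298 new and 215 of the 453 genes below naive had 50 reads or more on average. Among the 92 induced genes now lower, only 20 did.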
